A study of Mus musculus with 12 samples.

Results

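The genes described here are 38 genes of oxygen sensing and glucose breakdown in granulosa cells: the hypoxia-inducible factors (HIF) and the proteins that degrade them, known HIF target genes, glucose transporters, the enzymes of glycolysis, and the enzymes and carriers that handle pyruvate and lactate. They were chosen by name, as a list of gene symbols, with earlier results of these data known. Each was read from the brightest of its probe sets that names a single gene. Of the 38 genes, 35 were measured this way, out of 18193 genes measured in the series. Bnip3l, Gpi1 and Eno1 had no such probe set and are not analysed here. Granulosa cells line the ovarian follicle and were taken by laser microdissection from antral follicles of 3-week-old mice, which the labels call preovulatory. The mice were wild type (WT) or bERKO, which lack estrogen receptor beta; the promoter or cell type of the deletion and the mouse strain are not given in the sources used here. All 4 groups received pregnant mare serum gonadotropin (PMSG), which acts like follicle-stimulating hormone, and cells were collected 48 h later without further treatment (WT PMSG and bERKO PMSG) or 4 h after human chorionic gonadotropin (hCG), which acts like luteinizing hormone and starts ovulation (WT hCG and bERKO hCG). Each group had 3 arrays that the labels call biological replicates, with no statement of how many animals gave each one, so a p-value measures the spread between these arrays only.

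Cells sense oxygen through the prolyl hydroxylases EGLN1, EGLN2 and EGLN3, which use oxygen to mark the alpha subunits HIF1A and EPAS1 (HIF2A) for destruction by the ubiquitin ligase that contains VHL. When oxygen is short the alpha subunits persist and switch on target genes, among them transporters and enzymes of glycolysis and also Egln3 and Egln1 themselves. In ovarian follicles the granulosa layer has no blood vessels of its own before ovulation, and granulosa cells are known for strong glycolysis that supplies pyruvate and lactate to the oocyte. Oxygen itself was not measured in this series.

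Below, a level is the quantile normalized log2(intensity + 16) of one probe set, with a lowest possible value near 4, and a change is the difference of 2 group means on that scale, with its standard error (SE), over 3 arrays per group. An adjusted p comes from limma over all 18193 genes, and a gene is said to have risen or fallen where it was under 0.05. Levels of different probe sets are not compared with each other. Added intensity of 16 makes the changes of dim genes smaller than their true fold. Of the 35 genes, 34 reached an intensity of 100 on at least 3 arrays; Slc2a3 did not. The probe sets used for Adm, Ndrg1, Slc2a3 and Aldoa carry a suffix that marks probes shared with other sequences.

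The arrays had median intensities from 49.1 to 112.4. The ratio of the 3' to the 5' Gapdh control, which is high in broken or incompletely copied RNA, lay between 4.72 and 11.19 on 10 arrays. It was 23.74 for the third bERKO PMSG array and 32.16 for the first WT hCG array. The same ratio for the beta-actin control was 1.61 for the third bERKO PMSG array and 0.89 to 1.15 for the others. It was 1.02 for the first WT hCG array. Esr2, which encodes estrogen receptor beta, had a mean level of 9.56 in WT PMSG, 8.31 in bERKO PMSG, 8.99 in WT hCG and 8.33 in bERKO hCG, and its probe set need not lie in the deleted part. The summed intensity of 10 granulosa markers was 72990 to 85850 in WT PMSG, 81785 to 92591 in bERKO PMSG, 70845 to 97104 in WT hCG and 60580 to 71203 in bERKO hCG. Markers of other cells also moved with the groups. The summed intensity of 13 oocyte markers was 8265 to 26563 in bERKO PMSG, 684 to 7268 in WT PMSG, 1051 to 1943 in WT hCG and 1472 to 3718 in bERKO hCG. The summed intensity of 13 endothelial markers was 1683 to 3248 in bERKO hCG, against 662 to 782 in WT hCG, 313 to 831 in bERKO PMSG and 561 to 1075 in WT PMSG. Markers of stroma and smooth muscle summed to 4197 to 16623 in bERKO hCG, 2125 to 3013 in WT hCG, 996 to 4051 in bERKO PMSG and 687 to 7199 in WT PMSG. In such samples fewer cells of a type and less RNA per cell cannot be told apart.

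HIF binds DNA at short sites that contain ACGTG or GCGTG. The promoter windows of 4 genes that passed the test in the bERKO response to hCG are shown to set that core beside the data, Egln3 and Hk2 having risen and Bnip3 and Pdk1 having fallen. Each runs from 250 bases before the start of the RefSeq gene to 50 bases after it (GRCm38.p6), on the gene's strand, and capitals mark ACGTG or GCGTG or their reverse complements CACGT and CACGC.
Egln3, chr12:54203825-54204124, minus strand: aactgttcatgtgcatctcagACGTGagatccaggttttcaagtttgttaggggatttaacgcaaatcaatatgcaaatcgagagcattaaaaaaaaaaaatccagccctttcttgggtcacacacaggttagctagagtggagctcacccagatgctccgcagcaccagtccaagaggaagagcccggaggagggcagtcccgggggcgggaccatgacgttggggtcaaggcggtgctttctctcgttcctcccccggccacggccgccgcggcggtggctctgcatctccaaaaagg
Hk2, chr6:82774405-82774704, minus strand: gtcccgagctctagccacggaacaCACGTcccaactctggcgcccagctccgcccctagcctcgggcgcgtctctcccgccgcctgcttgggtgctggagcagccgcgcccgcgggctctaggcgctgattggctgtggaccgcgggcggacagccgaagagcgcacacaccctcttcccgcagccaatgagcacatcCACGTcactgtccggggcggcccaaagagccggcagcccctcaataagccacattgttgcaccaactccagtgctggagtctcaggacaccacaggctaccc
Bnip3, chr7:138909457-138909756, minus strand: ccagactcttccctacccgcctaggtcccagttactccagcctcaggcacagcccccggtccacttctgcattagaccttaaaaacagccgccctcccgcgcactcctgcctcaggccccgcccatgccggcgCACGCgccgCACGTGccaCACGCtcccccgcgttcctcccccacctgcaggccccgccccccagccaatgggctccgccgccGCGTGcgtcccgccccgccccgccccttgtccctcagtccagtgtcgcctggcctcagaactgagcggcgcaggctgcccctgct
Pdk1, chr2:71872974-71873273, plus strand: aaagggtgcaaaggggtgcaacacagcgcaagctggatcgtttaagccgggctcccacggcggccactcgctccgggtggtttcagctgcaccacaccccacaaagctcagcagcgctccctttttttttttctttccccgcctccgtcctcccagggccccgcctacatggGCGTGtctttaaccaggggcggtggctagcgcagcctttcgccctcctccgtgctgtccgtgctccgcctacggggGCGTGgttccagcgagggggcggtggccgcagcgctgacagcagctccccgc

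The core letters stand in windows of genes that rose and of genes that fell. In the Bnip3 window the run CACGTG holds the core on both strands, overlapping. Pdk1 has 2 windows in the table, of which the first is shown and the second holds no core. Of the 38 genes, 34 matched the table with 48 windows in all, and 40 of the 48 windows (83.3%) held ACGTG or GCGTG on either strand. That core stood in 43.8% of the 32851 windows of the table, ACGTG alone in 19.6% and GCGTG alone in 32.4%. The windows of these genes were also richer in G and C, with a median of 63.8% against 52.7% over all windows. The full site for cyclic AMP response factors, TGACGTCA, was found in 1 window of these genes, that of Ldha, and in 1.79% of all windows. A match is a description of letters and was not tested for binding.

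Among the 5 comparisons, hCG in bERKO cells gave the most of these genes that passed the test. There 18 of the 35 genes (51.4%) passed the test, 7 higher and 11 lower, against 19.0% of all genes (7.06% higher and 11.9% lower) and 27.5% of the genes that reached an intensity of 100 on at least 3 arrays. The list was chosen with earlier results of these data known, so these shares only describe it. The median change of the 35 genes was -0.11, against -0.19 over all genes, and their median absolute change was 1.05 against 0.58. With each array centred on its median in place of quantile normalization, which puts the median of all genes at -0.41, 18 genes passed, 5 higher and 13 lower; 16 of them were among the 18 above, and Epas1 and Slc2a1 no longer passed. The count of 18 was 10 when bERKO PMSG replicate 1 or any single bERKO hCG array was left out. In the same comparison 5 of 13 endothelial, 2 of 13 leukocyte and 2 of 12 stromal markers rose and 8 of 13 oocyte markers fell. Of 10 granulosa markers 4 fell as well, among them Fshr by 1.84 (adjusted p = 0.0248) and Foxl2 by 1.56 (adjusted p = 0.0133). Of 4 theca and interstitial markers 2 fell and 1, Star, rose. Star rose with hCG in WT too, by 4.02 (adjusted p = 0.0343). The part of all these markers in the count was not tested. In WT cells hCG changed 1 of the 35 genes, Egln3, which rose, against 2.11% of all genes in either direction and 0.737% higher, and 15 of the 35 had an unadjusted p under 0.05, as did 17.1% of all genes. Their median change in WT was -0.43, against -0.08 over all genes, and 28 of the 35 changes were negative. Their median absolute change in WT was 0.68, against 0.4 over all genes, so the 35 genes also moved in WT. Between the genotypes, 2 of the 35 were higher in bERKO after hCG, Egln3 and Ndrg1, against 3.17% of all genes in either direction and 1.58% higher. After PMSG alone limma called 0 of the 35 between the genotypes, against 0.0110% of all genes, and 6 of the 35 had an unadjusted p under 0.05, as did 9.54% of all genes. The hCG response itself differed between the genotypes for the same 2 genes, Egln3 and Ndrg1, against 1.32% of all genes, 0.682% in the same direction. These comparisons share arrays, so their values are given side by side and are not independent of each other.

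**Figure D1:**
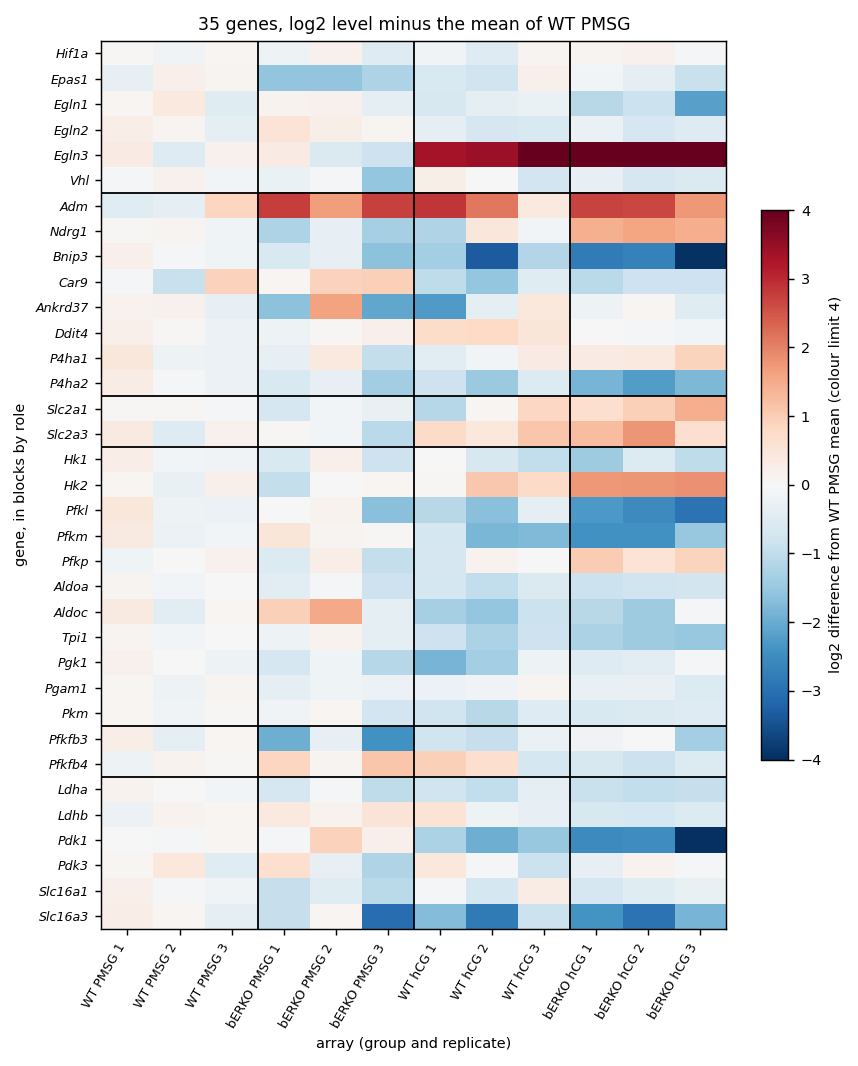
Level of each of the 35 measured genes on each of the 12 arrays, as the difference from the WT PMSG mean in log2 units, with colours limited to 4 in either direction and genes ordered by role. Egln3 is the row with the strongest rise on the hCG arrays, and Pdk1 and the phosphofructokinase genes Pfkl and Pfkm are low on the bERKO hCG arrays.

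Among the oxygen sensing genes the hydroxylase Egln3 had the largest change of all 35 genes. Its levels were 5.52, 4.67 and 5.37 in WT PMSG, 5.52, 4.61 and 4.35 in bERKO PMSG, 8.52, 8.61 and 9.28 in WT hCG and 11.06, 10.64 and 11.69 in bERKO hCG. All PMSG arrays lay near the floor of the scale, every hCG array lay above them, and every bERKO hCG array lay above every WT hCG array. Egln3 rose by 3.62 with hCG in WT (SE 0.40, adjusted p = 0.00489), which is 12.3-fold. In bERKO it rose by 6.30 (SE 0.40, adjusted p = 3.05e-05), 78.9-fold on this scale, with a range of 4.88 to 7.59 over the 24 other settings of the analysis. The ends of that range belong to an added intensity of 64 (4.88) and of 1 (7.59). After hCG it was 5.01-fold higher in bERKO than in WT (difference 2.33, SE 0.40, adjusted p = 0.0136), and its response was larger in bERKO by 2.68 (SE 0.57, adjusted p = 0.0443). The other Egln3 probe set changed by 6.64 in bERKO, by 2.15 in WT and by 3.71 between the genotypes after hCG. Without WT hCG replicate 1 the genotype difference was 2.18 (adjusted p = 0.0608), and without bERKO hCG replicate 1 it was 2.36 (adjusted p = 0.0504). Without bERKO PMSG replicate 3 the bERKO rise was 6.06 (adjusted p = 0.000229) and the difference of responses 2.45 (adjusted p = 0.0834). Endothelial markers were higher on the bERKO hCG arrays as well (4 of 13 called against WT hCG), and their part in the genotype difference was not tested.

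Epas1, the HIF2 alpha subunit, was low on the bERKO PMSG arrays and rose there with hCG. Its levels were 12.27, 12.80 and 12.70 in WT PMSG, 11.01, 11.02 and 11.34 in bERKO PMSG, 11.98, 11.80 and 12.78 in WT hCG and 12.50, 12.21 and 11.70 in bERKO hCG. All 3 bERKO PMSG arrays were below every other array. The difference from WT after PMSG was -1.46 (SE 0.32) with an adjusted p of 0.192, among 18193 genes of which 2678 (14.7%) had groups that did not overlap. Epas1 rose by 1.01 with hCG in bERKO (SE 0.32, adjusted p = 0.049), a call that held in 9 of the 24 other settings. Its 2 probe sets moved alike there, by 1.01 and 1.43. Egln1, the main HIF hydroxylase of most tissues, moved the other way from Egln3, with levels of 11.30, 11.32 and 10.80 in bERKO PMSG and 10.05, 10.30 and 8.99 in bERKO hCG. The fall of 1.36 (SE 0.37, adjusted p = 0.0237) was carried by its brighter probe set, and the other Egln1 probe set changed by -0.09. In WT, Egln1 levels were 11.25, 11.55 and 10.67 after PMSG and 10.50, 10.79 and 10.88 after hCG, which overlap. Hif1a, the main alpha subunit, ran from 12.12 to 12.81 over the 12 arrays and did not pass in any comparison. Egln2 and Vhl also passed in none; the Egln2 change in bERKO was -0.79 (adjusted p = 0.0531).

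**Figure D2:**
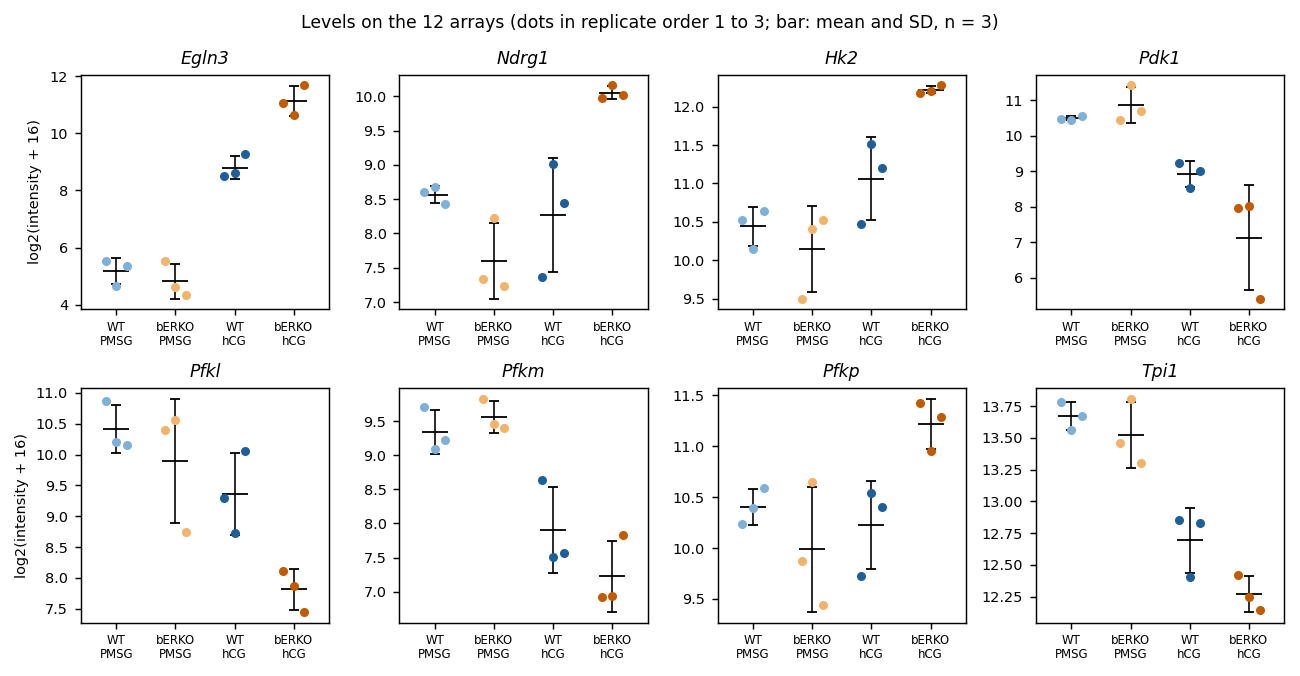
Levels of 8 genes that passed in the bERKO response to hCG, as log2(intensity + 16) after quantile normalization, by group; dots are the 3 arrays in replicate order and the bar is the mean with its SD. The bERKO hCG arrays of Egln3, Ndrg1, Hk2 and Pfkp lie above all WT hCG arrays, and those of Pdk1 and Pfkl lie below them.

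The 8 measured genes listed as HIF targets split in bERKO cells after hCG: 1 rose, 3 fell and 4 did not pass. Other targets of HIF, among them Egln3 and Pgk1, are listed under other roles and are not in this count. Ndrg1, a stress-responsive gene named after N-myc, was the one that rose. Its levels were 8.60, 8.67 and 8.43 in WT PMSG, 7.34, 8.23 and 7.23 in bERKO PMSG, 7.37, 9.01 and 8.44 in WT hCG and 9.98, 10.16 and 10.02 in bERKO hCG. The bERKO arrays lay below the WT arrays after PMSG and above them after hCG, with no overlap either time. The difference after PMSG was -0.97 (adjusted p = 0.47) and did not pass, and 14.7% of all genes had no overlap there. The rise in bERKO was 2.45 (SE 0.40, adjusted p = 0.00176), 5.47-fold, and the change in WT was -0.29 (adjusted p = 0.785). After hCG the level was 3.43-fold higher in bERKO (difference 1.78, SE 0.40, adjusted p = 0.0372), and the responses differed by 2.74 (SE 0.56, adjusted p = 0.0411). Its 5 probe sets did not move alike: they ran from -0.03 to 3.21 in the bERKO response and from -0.32 to 1.78 between the genotypes after hCG. The genotype difference passed in 11 of the 24 other settings. It was 1.33 (adjusted p = 0.102) without WT hCG replicate 1, the lowest WT hCG array for this gene. Leaving out any single WT PMSG or bERKO hCG array, or WT hCG replicate 3, also ended that call, at adjusted p-values from 0.0538 to 0.111.

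Bnip3, which promotes removal of mitochondria, fell in bERKO by 2.29 (SE 0.57, adjusted p = 0.0158), 4.89-fold. Its levels were 13.03, 12.79 and 12.66 in WT PMSG, 12.20, 12.49 and 11.19 in bERKO PMSG, 11.46, 9.49 and 11.65 in WT hCG and 10.03, 10.12 and 8.86 in bERKO hCG. In both genotypes every hCG array was below every PMSG array; the WT change was -1.96 with an adjusted p of 0.0988. P4ha2, a subunit of the collagen prolyl hydroxylase, had levels of 8.16, 8.43 and 7.38 in bERKO PMSG and 6.91, 6.54 and 6.97 in bERKO hCG, a fall of 1.18 (SE 0.34, adjusted p = 0.0316). Its WT levels were 9.06, 8.73 and 8.53 after PMSG and 7.93, 7.29 and 8.22 after hCG, so the groups did not overlap in either genotype. The WT change of P4ha2 was -0.96 (adjusted p = 0.176) and did not pass. Car9, the carbonic anhydrase often used as a hypoxia marker, was dim, at 6.85, 7.70 and 7.73 in bERKO PMSG and 5.70, 5.94 and 5.97 in bERKO hCG. It fell by 1.55 (SE 0.45, adjusted p = 0.0308). Its WT levels of 6.74, 5.90 and 7.72 after PMSG overlapped those of 5.76, 5.25 and 6.29 after hCG. The Car9 change without bERKO PMSG replicate 3 was -1.40 (adjusted p = 0.085), while Bnip3 and P4ha2 still passed.

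The other 4 HIF targets, Adm, Ankrd37, Ddit4 and P4ha1, passed in no comparison. Ddit4, an inhibitor of mTORC1 signalling, was chosen for description after its values were seen. It was 14.32, 14.37 and 14.06 in WT hCG against 13.56, 13.52 and 13.47 in bERKO hCG, with a difference of -0.74 (SE 0.24, adjusted p = 0.121). Adm, a vasodilator peptide, was likewise singled out after its values were seen. It was 10.90, 11.05 and 12.24 in WT PMSG and 14.17, 13.07 and 14.12 in bERKO PMSG. The bERKO arrays were all higher, the difference was 2.39 (SE 0.60, adjusted p = 0.265), and the other Adm probe set differed by 0.05. Oocyte markers were also higher on those bERKO PMSG arrays, and their part in the difference was not tested. Adm was 14.25, 13.49 and 11.8 in WT hCG and 14.11, 14.06 and 13.13 in bERKO hCG. The oocyte marker sums were 1051 to 1943 in WT hCG and 1472 to 3718 in bERKO hCG. The WT change of Adm with hCG was 1.79 (SE 0.6, adjusted p = 0.152), and that of the other probe set was -0.37.

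Both glucose transporters rose with hCG in bERKO cells. Slc2a1 (GLUT1), the common basal transporter, had levels of 12.47, 12.47 and 12.37 in WT PMSG, 11.78, 12.31 and 12.13 in bERKO PMSG, 11.29, 12.52 and 13.26 in WT hCG and 13.12, 13.38 and 13.88 in bERKO hCG. The WT hCG arrays were spread widely, from below to above the PMSG arrays, and the bERKO hCG arrays were close together and high. The rise in bERKO was 1.39 (SE 0.43, adjusted p = 0.0405), 2.62-fold, and its 3 probe sets gave 1.39 to 1.56. The change in WT was -0.08 (adjusted p = 0.956), and 0.45 (adjusted p = 0.542) without WT hCG replicate 1. Slc2a3 (GLUT3), the high-affinity transporter, was dim, with levels of 5.47, 5.30 and 4.35 in bERKO PMSG and 6.64, 7.19 and 6.07 in bERKO hCG. In WT it was 5.78, 4.88 and 5.58 after PMSG and 6.19, 5.83 and 6.52 after hCG. The bERKO rise was 1.60 (SE 0.40, adjusted p = 0.0164), but its 4 probe sets ran from -1.15 to 2.56 and so differed in sign. Neither transporter passed without bERKO PMSG replicate 3, at 1.42 (adjusted p = 0.0754) for Slc2a1 and 1.25 (adjusted p = 0.0526) for Slc2a3.

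The 11 measured glycolytic enzymes did not move as a block in bERKO cells: 2 rose, 4 fell and 5 did not pass. Hexokinase 2 (Hk2), which traps glucose in the cell by phosphorylation and is the inducible hexokinase, was one of those that rose. Its levels were 10.53, 10.15 and 10.64 in WT PMSG, 9.50, 10.41 and 10.52 in bERKO PMSG, 10.47, 11.52 and 11.20 in WT hCG and 12.18, 12.21 and 12.28 in bERKO hCG. The bERKO hCG arrays agreed closely and lay above every other array. The rise was 2.08 (SE 0.34, adjusted p = 0.00195), 4.23-fold, and the change in WT was 0.63 (adjusted p = 0.394). The difference between genotypes after hCG was 1.16 (adjusted p = 0.0969) and that between the responses 1.45 (SE 0.49, adjusted p = 0.18), so neither passed. The constitutive hexokinase Hk1 ran from 6.28 to 7.95 and passed nowhere.

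Phosphofructokinase, which commits sugar to glycolysis, is built from 3 kinds of subunit, and these moved in different directions. The platelet-type subunit Pfkp rose by 1.24 in bERKO (SE 0.34, adjusted p = 0.0263), from 9.87, 10.65 and 9.44 to 11.43, 10.95 and 11.29. Its WT levels were 10.24, 10.39 and 10.59 after PMSG and 9.73, 10.54 and 10.40 after hCG, which overlap. All 3 Pfkp probe sets rose in bERKO, by 1.24 to 2.03. The liver-type subunit Pfkl fell by 2.09 (SE 0.49, adjusted p = 0.0122), from 10.40, 10.56 and 8.74 to 8.12, 7.87 and 7.45. Its WT levels were 10.86, 10.21 and 10.16 after PMSG and 9.29, 8.73 and 10.06 after hCG, so the bERKO hCG arrays were the lowest of all. The muscle-type subunit Pfkm fell by 2.33 (SE 0.37, adjusted p = 0.00155), 5.03-fold, from 9.83, 9.45 and 9.40 to 6.92, 6.93 and 7.83. In WT it was 9.70, 9.09 and 9.22 after PMSG and 8.63, 7.51 and 7.57 after hCG, a change of -1.43 (adjusted p = 0.0717). Without WT hCG replicate 1 the WT change was -1.79 and passed (adjusted p = 0.0267). Pfkl and Pfkm have 3 and 1 probe sets, and those of Pfkl gave -3.05 to -1.11 in bERKO.

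Among the later enzymes, Tpi1, which interconverts the triose phosphates, fell by 1.25 in bERKO (SE 0.25, adjusted p = 0.00499), 2.38-fold. Its levels were 13.78, 13.56 and 13.67 in WT PMSG, 13.46, 13.81 and 13.30 in bERKO PMSG, 12.85, 12.40 and 12.83 in WT hCG and 12.42, 12.25 and 12.14 in bERKO hCG. Every hCG array was below every PMSG array, and the WT change of -0.98 had an adjusted p of 0.0667. Its 3 probe sets gave -1.98 to -1.25 in bERKO. Aldoc, a minor aldolase of most tissues, fell by 1.57 in bERKO (SE 0.49, adjusted p = 0.0439), although its levels of 8.95, 9.52 and 7.64 after PMSG and 6.90, 6.56 and 7.92 after hCG overlap. In WT it was 8.37, 7.54 and 8.08 after PMSG and 6.66, 6.44 and 7.15 after hCG. Aldoa, Pgk1, Pgam1 and Pkm passed in no comparison, with bERKO changes from -0.36 to 0.33. Pgk1, a standard HIF target that makes ATP, was singled out after its values were seen: its WT levels were 13.75, 13.60 and 13.38 after PMSG and 11.71, 12.22 and 13.37 after hCG, with the lowest value on WT hCG replicate 1. Its WT change was -1.14 (adjusted p = 0.171), and -0.78 (adjusted p = 0.342) without that array.

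The paired enzymes that set the level of fructose 2,6-bisphosphate, the activator of phosphofructokinase, differed from each other. Pfkfb4 fell with hCG in bERKO by 1.38 (SE 0.41, adjusted p = 0.0348), from 9.52, 8.77 and 9.77 to 8.01, 7.81 and 8.10. Its WT levels of 8.46, 8.80 and 8.71 after PMSG overlapped those of 9.61, 9.32 and 7.97 after hCG. Its change was -1.17 (adjusted p = 0.101) without bERKO PMSG replicate 3. Pfkfb3, the inducible form, passed nowhere. It was 9.72, 9.11 and 9.55 in WT PMSG, 7.51, 9.14 and 7.05 in bERKO PMSG, 8.67, 8.54 and 9.21 in WT hCG and 9.30, 9.44 and 8.11 in bERKO hCG. The lower bERKO PMSG level rested on 2 of the 3 arrays, and the difference of -1.56 (SE 0.52) had an adjusted p of 0.375. With hCG in bERKO the probe set used changed by 1.05 (SE 0.52, adjusted p = 0.184), and the other Pfkfb3 probe set by 2.73.

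At the exit of glycolysis, pyruvate dehydrogenase kinase 1 (Pdk1) fell most of all 35 genes. Its levels were 10.48, 10.44 and 10.56 in WT PMSG, 10.44, 11.42 and 10.70 in bERKO PMSG, 9.24, 8.53 and 8.99 in WT hCG and 7.95, 8.01 and 5.41 in bERKO hCG. Both PMSG groups were high, WT hCG was lower and bERKO hCG was lowest, and the WT hCG arrays overlapped neither the PMSG arrays nor the bERKO hCG arrays. The fall in bERKO was 3.73 (SE 0.58, adjusted p = 0.00141), which is 13.3-fold, and the 4 Pdk1 probe sets gave -3.76 to -2.50. The WT change was -1.57 (adjusted p = 0.191), the genotype difference after hCG -1.80 (adjusted p = 0.123) and the difference of responses -2.16 (adjusted p = 0.239), so these did not pass. Without bERKO hCG replicate 3, whose value of 5.41 was far below the others, the bERKO fall was 2.87 and still passed, and the genotype difference after hCG was -0.94. Oocyte markers also fell with hCG in bERKO, 8 of 13 of them by the test. The part of that fall in the Pdk1 values was not tested.

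Ldhb, the lactate dehydrogenase subunit that favours pyruvate formation, fell by 0.98 in bERKO (SE 0.28, adjusted p = 0.0297), from 14.18, 13.92 and 14.31 to 13.16, 13.08 and 13.23. Its WT levels were 13.55, 13.93 and 13.86 after PMSG and 14.33, 13.58 and 13.45 after hCG, with means of 13.78 and 13.79 (adjusted p = 0.998). The 4 probe sets of Ldhb gave -0.98 to -0.78 in bERKO. Among the bERKO arrays, PMSG replicate 3, with the largest oocyte marker sum of 26563, had the highest level. Without that array the fall was 0.89 (adjusted p = 0.0739). The highest level of all 12 arrays, 14.33, was on WT hCG replicate 1, which had an oocyte marker sum of 1389. The part of the oocyte markers in the falls of Ldhb and the other genes was not tested. Ldha, the subunit that favours lactate formation, the kinase Pdk3 and the lactate carriers Slc16a1 (MCT1) and Slc16a3 (MCT4) passed nowhere, with bERKO changes from -1.10 to 0.34. Without bERKO PMSG replicate 3, which was the lowest bERKO PMSG array for Slc16a3 at 7.32 against 9.44 and 10.43, the fall of Slc16a3 in bERKO did pass.

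**Figure D3:**
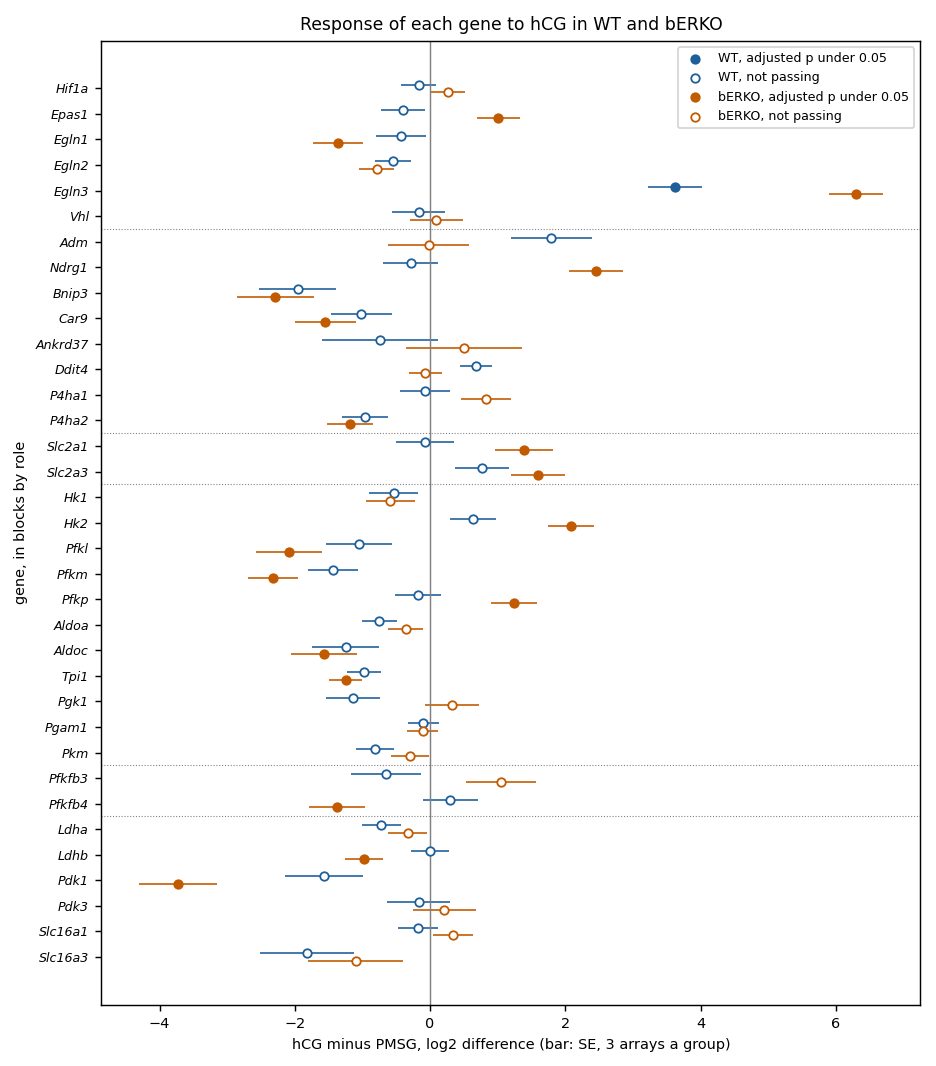
Change with hCG of each of the 35 genes in WT and in bERKO, in log2 units with 1 SE on either side and genes in blocks by role; filled dots passed the test and open dots did not. Egln3 rose in both genotypes (3.62 and 6.30) and is the 1 filled dot in WT, against 18 in bERKO.

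Passing in bERKO and not in WT does not show that the responses differ. The test of the difference itself called Egln3 and Ndrg1 among the 35 genes, and 12 of the 35 had an unadjusted p under 0.05, against 15.3% of all genes. Of the 18 genes called in bERKO, 7 passed under all 24 other settings: Egln3, Ndrg1 and Hk2, which rose, and Pfkl, Pfkm, Tpi1 and Pdk1, which fell. The other 11 kept their sign but lost the call when at least 1 of the 12 arrays was left out in turn, at adjusted p-values from 0.0521 to 0.164. Without bERKO PMSG replicate 3, 11 of the 18 passed, the 7 named and Egln1, P4ha2, Bnip3 and Aldoc. The genes lost there were Epas1, Car9, Slc2a1, Slc2a3, Pfkp, Pfkfb4 and Ldhb.

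The HIF targets and the glycolytic enzymes were then set against each other, by the median change of each group. These groups are roles in the list. The enzymes include HIF targets such as Pgk1, so the contrast does not set targets against other genes. With hCG in WT the median was -0.51 for the 8 HIF targets and -0.82 for the 11 enzymes, and in bERKO it was -0.04 and -0.36. The HIF targets were thus higher relative to the enzymes by 0.30 in WT and by 0.32 in bERKO. The gap taken on each single array had an SD of 0.35 within groups (n = 3 per group). That SD belongs to single arrays and to another way of taking the gap. It therefore does not measure the error of 0.30 or 0.32. After hCG, bERKO minus WT was 0.32 for the HIF targets and -0.05 for the enzymes, a gap of 0.37. After PMSG the medians were -0.50 and -0.30, a gap of -0.20. Within each group single genes ran far wider than the gap, from -2.29 to 2.45 among the HIF targets and from -2.33 to 2.08 among the enzymes in bERKO. Medians therefore hide the split inside both groups.

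Without bERKO PMSG replicate 3 the gap was 0.10 after PMSG, 0.47 for the hCG response in bERKO and -0.45 for the difference of responses, against -0.20, 0.32 and -0.26 with it. On that array the HIF targets stood at a median of -1.14 and the enzymes at -0.77 relative to the WT PMSG means, the lowest HIF target value of all arrays. Other arrays moved the gap as well, as the ranges at the end show, and among them was WT hCG replicate 1. Its HIF targets stood at -0.93 and its enzymes at -0.72, a gap of -0.21, while WT hCG replicates 2 and 3 had gaps of 0.88 and 0.62 and the bERKO hCG arrays 0.77, 0.60 and 0.24. Without it the gap of the WT response was 0.88 and that of bERKO minus WT after hCG was -0.03. The array also had the highest Gapdh ratio, 32.16, but a beta-actin ratio of 1.02. The part of RNA quality in these gaps was not tested.

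**Figure D4:**
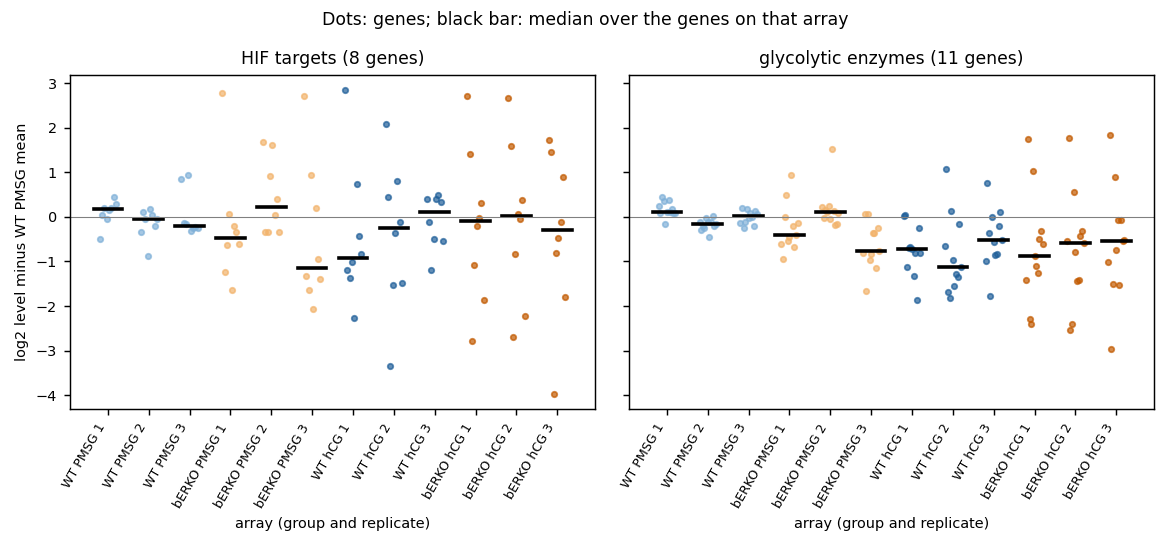
Levels of the 8 HIF targets and of the 11 glycolytic enzymes on each array, relative to the mean of the WT PMSG arrays, in log2 units; dots are genes and the black bar is their median on that array. On bERKO PMSG replicate 3 and WT hCG replicate 1 the median of the HIF targets lies below that of the enzymes (-1.14 and -0.77, -0.93 and -0.72), and on the other 5 hCG arrays it lies above. The HIF target median is also the lower one on WT PMSG replicate 3 (-0.2 and 0.01) and bERKO PMSG replicate 1 (-0.47 and -0.41).

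A longer list of 87 other genes of the same pathways, 78 of them measured, was read in the same way. With hCG in bERKO 11 of 37 other hypoxia genes passed, 7 higher and 4 lower, and 10 of 41 other genes of glucose metabolism passed, 3 higher and 7 lower. Those shares, 29.7% and 24.4%, stand against 19.0% of all genes and 27.5% of the brighter ones. The smallest p-values belonged to Bhlhe40, a repressor and HIF target that rose by 4.01 (SE 0.44, adjusted p = 0.000265), and to Fbp1, the gluconeogenic fructose bisphosphatase, which fell by 2.61 (SE 0.30, adjusted p = 0.000312). Both also passed in WT, Bhlhe40 at 2.34 (adjusted p = 0.0237) and Fbp1 at -2.45 (adjusted p = 0.00513). Bhlhe40 levels were 8.62, 7.90 and 7.55 in WT PMSG, 7.09, 7.94 and 6.77 in bERKO PMSG, 9.76, 11.17 and 10.15 in WT hCG and 11.04, 11.16 and 11.63 in bERKO hCG. It thus joined Egln3 as a gene raised by hCG in both genotypes. Fbp1 was at 7.49 to 8.43 on the 6 PMSG arrays and at 4.59 to 5.71 on the 6 hCG arrays, with no overlap.

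Cited2, which competes with HIF for its coactivator, rose by 1.90 in bERKO (SE 0.35, adjusted p = 0.00342), and the hypoxia-induced mitochondrial gene Fam162a fell by 1.65 (SE 0.27, adjusted p = 0.00183), while its other probe set changed by 0.20. Pdk2, a second pyruvate dehydrogenase kinase, fell beside Pdk1. Its levels were 9.82, 9.45 and 9.05 in WT PMSG, 9.69, 9.87 and 9.51 in bERKO PMSG, 8.37, 8.91 and 9.45 in WT hCG and 6.72, 7.62 and 4.36 in bERKO hCG. All bERKO hCG arrays were below every other array, and replicate 3 was the lowest, as it was for Pdk1. The Pdk2 fall in bERKO was 3.46 (SE 0.65, adjusted p = 0.00381), and after hCG the difference of bERKO from WT was -2.68 (SE 0.65, adjusted p = 0.0488). Zfp395, a hypoxia-responsive zinc finger gene, was also lower (-1.67, SE 0.39, adjusted p = 0.0434) and fell by 2.22 in bERKO (adjusted p = 0.00271). Malic enzyme Me1, which turns malate into pyruvate and makes NADPH, was higher in bERKO after hCG by 1.73 (SE 0.40, adjusted p = 0.0436). These were the 3 of the 78 genes called between the genotypes after hCG, against 3.17% of all genes. Of 24 other settings Pdk2 passed in 8, Zfp395 in 9 and Me1 in 10, and each of the 3 calls was lost without any single WT PMSG array. The Pdk2 difference was -1.74 without bERKO hCG replicate 3.

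**Figure D5:**
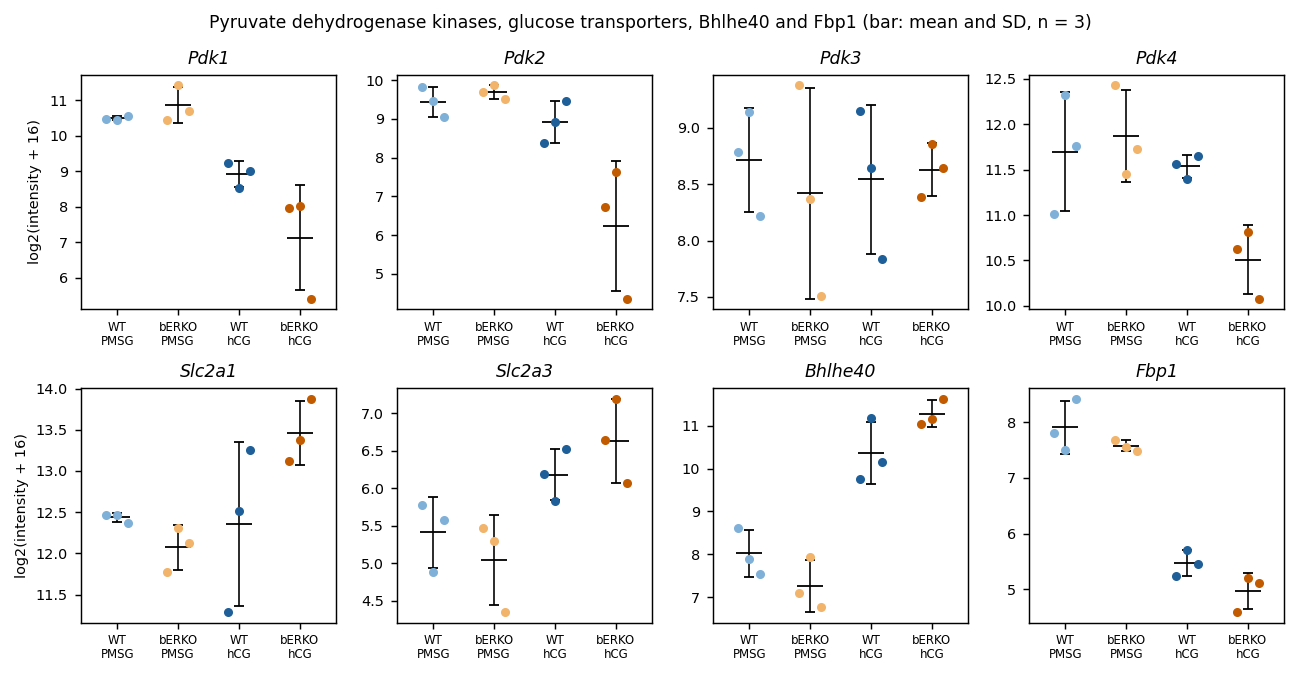
Levels of 4 pyruvate dehydrogenase kinases, 2 glucose transporters, Bhlhe40 and Fbp1, as log2(intensity + 16) after quantile normalization, by group; dots are the 3 arrays in replicate order and the bar is the mean with its SD. Pdk1 and Pdk2 are lowest on bERKO hCG replicate 3 (5.41 and 4.36), and Bhlhe40 is high and Fbp1 low on all 6 hCG arrays.

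In WT, hCG also raised Arnt2, a partner of the HIF alpha subunits, by 1.85 (SE 0.39, adjusted p = 0.0358), a call that held in 12 of 24 other settings. Its levels were 6.01, 6.71 and 6.44 in WT PMSG, 8.13, 8.28 and 9.49 in bERKO PMSG, 8.18, 8.45 and 8.08 in WT hCG and 7.57, 8.51 and 8.21 in bERKO hCG. The WT PMSG arrays were thus lower than all others, and the difference of 2.25 between the genotypes after PMSG had an adjusted p of 0.0962. After PMSG alone limma called 0 of the 78 genes, and 4 hypoxia genes and 3 genes of glucose metabolism had an unadjusted p under 0.05, against 9.54% of all genes. In the test of the difference of responses 0 of the 78 passed, with 12 hypoxia genes and 11 genes of glucose metabolism at an unadjusted p under 0.05, against 1.32% of all genes called and 15.3% at an unadjusted p under 0.05.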

How the data were processed

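Expression was measured on 12 one-colour Affymetrix mouse arrays, 3 per group. Each probe set had 1 deposited intensity on a linear scale, scaled by the authors so that each array had a 2% trimmed mean of 500, as computed from the values, with software not given in the sources used here. Per the labels' protocols, 25 ng of laser-captured RNA was amplified with a NuGEN kit and labelled with biotin. Of 45101 probe sets, 64 controls were left out; 34945 named 1 gene in the platform annotation, 932 several, and 9160 were not listed.

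An intensity of 16 was added, log2 values were quantile normalized because array medians differed by 0.98, and each gene was read from its brightest one-gene probe set. limma 3.58.1 (R 4.3.3) fitted the 4 groups over all 12 arrays, with 5 contrasts, eBayes and Benjamini-Hochberg adjustment within a contrast, two-sided, at 0.05; it was tested on simulated data. The comparison of HIF targets with enzymes is a difference of medians with no test. Every gene that passed somewhere, and the 2 with the smallest p in each role, was given in full; up to 6 passing genes per contrast of the longer list were named. The members and lists were chosen with earlier results of these data known. Alternatives were the scaling, the added intensity (1, 64), a dim filter, the mean of probe sets, fewer groups, the Gapdh ratio, array weights, a replicate block and leaving out arrays. Equal replicate numbers did not pair the arrays. Promoter windows are from RefSeq; Python 3.11.15 and matplotlib 3.10.9 drew the figures.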

Additional observations from a re-analysis of the deposited data

Results flagged for a closer look

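The response to hCG differed between the genotypes for 2 genes by the test of the difference itself. For Egln3 the response in bERKO exceeded that in WT by 2.68 (limma adjusted p = 0.0443), with adjusted p-values of 0.015 to 0.162 over 23 other settings, 8 of which kept the call. For Ndrg1 it did so by 2.74 (limma adjusted p = 0.0411), with adjusted p-values of 0.0241 to 0.0988, 10 of which were calls. Neither call held without bERKO PMSG replicate 3, without WT hCG replicate 1 or without any single WT PMSG or bERKO hCG array. The Egln3 call was also lost without bERKO PMSG replicate 2 or WT hCG replicate 2, and the Ndrg1 call without bERKO PMSG replicate 1. With 1 array left out, the differences ran from 2.40 to 3.03 for Egln3 and from 2.29 to 3.11 for Ndrg1.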

How the results depend on the processing

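The cause of the changes below was not tested. Of 23 called results of the 35 genes, 0 changed sign under any setting tried. Counts of called genes that moved by over 1.5 times were these. Between the genotypes after hCG the count of 2 was 1 on the values as deposited, with only the groups compared and with both arrays of high Gapdh ratio left out, 0 with an added intensity of 1, and 0 to 3 when 1 array was left out. For hCG in WT the count of 1 was 3 with median centring, with the dim filter and without both arrays, 4 with an added intensity of 64, 8 with array weights, and 1 to 2 without 1 array. For hCG in bERKO the count of 18 ran from 10 to 18 without 1 array. For the difference of responses the count of 2 was 1 on the values as deposited and with the mean of probe sets, 0 with an added intensity of 1, with the Gapdh ratio as a covariate and without both arrays, and 0 to 3 without 1 array. After PMSG alone the count was 0 under every setting tried.

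The gap between HIF targets and glycolytic enzymes was 0.16 after PMSG with the Gapdh covariate. For bERKO minus WT after hCG it was -0.03 without both arrays, and -0.03 to 0.38 without 1 array. For hCG in WT it was 0.85 with the Gapdh covariate, 0.73 with array weights, 0.88 without both arrays, and -0.01 to 0.88 without 1 array. For hCG in bERKO it ran from -0.05 to 0.52 without 1 array, from -0.39 to 0.10 for the genotypes after PMSG and from -0.54 to -0.06 for the difference of responses.

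Replicate numbers did not pair the arrays: 18 same-numbered pairs had correlations of deviations from -0.08 to 0.12, 1 of them over 0.1, and 6 of 12 arrays correlated best with their own number. With the replicate block the counts were 0 and 2 between the genotypes, 1 and 14 for hCG in WT and bERKO, and 1 for the difference of responses. Quantile normalization before log2 was added after seeing the data and left the counts at 0, 2, 1, 18 and 2. Dim genes such as Egln3 after PMSG, Slc2a3 and Car9 lie near the floor of the scale, which limits their fold changes, and 3 arrays a group limit every value.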
